A study of Mus musculus with 54 samples.

Results

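The genes of the voltage-gated sodium and calcium channels were examined in brain regions of mice that were Mbd5+/GT or wild type (WT). Members were the protein-coding genes whose symbol named a pore-forming sodium channel subunit (Scn with an a at the end), a sodium channel beta subunit (Scn with a b), a pore-forming calcium channel subunit (Cacna1), an alpha2delta subunit (Cacna2d) or a calcium channel beta subunit (Cacnb). The rule left out Scn7a and used no measured value. The 29 members described, of 47069 genes in the count table, were 8 sodium channel alpha and 3 sodium channel beta genes, 4 Cav1, 3 Cav2 and 3 Cav3 genes, 4 alpha2delta genes and 4 calcium channel beta genes. RNA-seq counts came from polyA RNA of frozen cortex, striatum and cerebellum of 18 mice at 8 weeks of age, each region of a mouse giving 1 library, 54 in total. Of the mice, 10 were Mbd5+/GT (5 females and 5 males), heterozygous for a gene-trap insertion in the second intron of Mbd5 that makes a hypomorphic allele, and 8 were WT littermates (5 females and 3 males). All were on a C57BL/6 background. The trap is a germline allele from 1 embryonic stem cell line, Ayu21-B205. The mice came from 3 litters, and litter 2 held 4 Mbd5+/GT mice and only 1 WT mouse.

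Voltage-gated sodium channels open when a neuron's membrane depolarizes and carry the rising phase of the action potential, while voltage-gated calcium channels turn depolarization into calcium entry that drives transmitter release, dendritic signals and gene regulation. In both families an alpha subunit forms the pore and the voltage sensor. Sodium channel beta subunits are single-pass membrane proteins that tune gating and cell adhesion, whereas the extracellular alpha2delta and the cytoplasmic beta subunits of calcium channels set how much channel reaches the membrane and how it gates. The Cav1 (L-type) channels respond to strong depolarization and signal to the nucleus, Cav2 (P/Q-, N- and R-type) channels serve synapses, and Cav3 (T-type) channels open near rest and support burst firing.

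Libraries held from 25295973 to 49027399 gene counts (median 29073866), and the 29 members together took 0.244% to 0.553% of a library. Mbd5 itself was lower in Mbd5+/GT mice, where cortex kept 69.9% of the WT mean, striatum 75.0% and cerebellum 76.9%, and where 10, 10 and 9 of the 10 Mbd5+/GT libraries were below that mean. A set of 11 libraries carried markers of another region or few markers of their own. Of these, 4 were cerebellum libraries (2 Mbd5+/GT, 2 WT) with Hox genes of the hindbrain or spinal cord, 2 were cortex libraries (1 of each genotype) with hypothalamic peptide genes, and 5 were striatum libraries (3 Mbd5+/GT, 2 WT) whose 6 summed striatal projection neuron markers did not exceed the highest cortex library (1261 CPM, the counts scaled to equal library totals). The extremes were the Mbd5+/GT cerebellum library of mouse M755, where the 6 granule cell markers summed to 161 CPM against a group median of 4768, and the WT striatum library of mouse M754, where the striatal markers summed to 137 CPM against a group median of 2817. Counts of called members, and most values of single members, are therefore given with and without these 11 libraries, a choice made after the marker levels were seen. Hypothalamic genes were checked in cortex libraries only. A kept Mbd5+/GT striatum library held 96.3 CPM of them, so the libraries outside the 11 were not all free of other-region markers.

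The stretches just upstream of 4 transcript starts are shown because 3 of them belong to genes of the genotype comparisons further on (Cacna2d1, Cacnb4 and Cacna2d3), because the Scn2a letters shown hold few CG by contrast, and because the methyl-CpG-binding domain family, to which the Mbd5 protein belongs, is named for the CG dinucleotide. Each is the 120 bases before a RefSeq transcript start on GRCm38.p6, written 5′ to 3′ on the gene's strand with every CG in capitals. The Cacna2d1 window (chr5:15934571-15934690, plus strand) and the Cacna2d3 window (chr14:29721865-29721984, minus strand) end at the base next to the annotated gene. The Cacnb4 window (chr2:52676144-52676263, minus strand) and the Scn2a window (chr2:65668566-65668685, plus strand) lie inside the gene, in introns of longer transcripts.
Cacna2d1: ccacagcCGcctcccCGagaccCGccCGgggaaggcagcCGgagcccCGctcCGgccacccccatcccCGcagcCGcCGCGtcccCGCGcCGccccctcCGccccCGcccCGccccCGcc
Cacnb4: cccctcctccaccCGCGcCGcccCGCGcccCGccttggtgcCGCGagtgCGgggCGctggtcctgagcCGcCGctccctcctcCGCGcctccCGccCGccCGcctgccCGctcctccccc
Cacna2d3: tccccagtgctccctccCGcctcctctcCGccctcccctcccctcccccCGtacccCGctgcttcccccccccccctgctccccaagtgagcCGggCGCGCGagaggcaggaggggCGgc
Scn2a: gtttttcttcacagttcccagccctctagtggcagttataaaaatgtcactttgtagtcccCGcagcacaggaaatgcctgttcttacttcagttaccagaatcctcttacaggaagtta
The first 3 held 36, 37 and 30 CG in the 250 bases before the start, and the Scn2a window held 9. The Cacnb4 window was the densest of 3 for that gene, the others holding 4 and 23, and the other Scn2a window held 2. Of the further genes of the genotype comparisons, Scn1a held 4 and Scn4b 23, in windows that lie in annotated exons and are not printed, so these genes ranged from few to many CG. Over the 33 windows found for 23 members, the median was 9 CG per 250 bases (range 1 to 50), against 6 (range 0 to 56) over all 32851 windows of 27025 genes. A CG was present in 100% of the members' windows and in 92.1% of all windows. These letters describe the sequence only, since methylation was not measured here. The study also cites in vitro work in which MBD5 did not bind methylated DNA. No window was found for Cacna1a, Cacna1g, Cacna1h, Cacna2d4, Scn3a and Scn3b.

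Levels are given as TMM-normalized CPM per kilobase of exon, so that genes of different length can be compared, and as the lowest, median and highest library of a group. By this measure 22 members reached a median of at least 1 CPM per kb in some WT region. The other 7 stayed below it in every WT region. These 7 were Scn4a, the skeletal muscle sodium channel, Scn9a, Scn10a and Scn11a, known from sensory neurons of the peripheral nervous system, Cacna1s of skeletal muscle, Cacna1f of photoreceptors, and Cacna2d4 of the retina. Scn4a never exceeded 5 counts in a library and could not be tested in any comparison.

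Auxiliary subunit genes had the highest levels per length among the members described. In WT cortex the medians of Scn2b (66.0 CPM per kb), a beta subunit that bonds covalently to the alpha subunit, Scn4b (64.8) and Cacnb3 (60.1) lay close together, and their libraries overlapped. In WT cerebellum Scn2b (59.2, 100 and 115 CPM per kb) stood above Cacnb4 (50.5), again with overlap. In striatum the WT median of Scn4b (186 CPM per kb) stood above that of Scn2b (68.6), but the Scn4b libraries ran from 6.10 to 359 and so overlapped those of Scn2b on both sides. Among pore-forming genes, Scn2a (27.4 CPM per kb) and Scn8a (23.8) led by median in WT cortex and Scn8a (17.4) in striatum, whereas Cacna1a (38.1) and Scn2a (32.4) led in cerebellum. These neighbours in the order overlapped widely between libraries. The plot of levels by region shows all members.

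**Figure D1:**
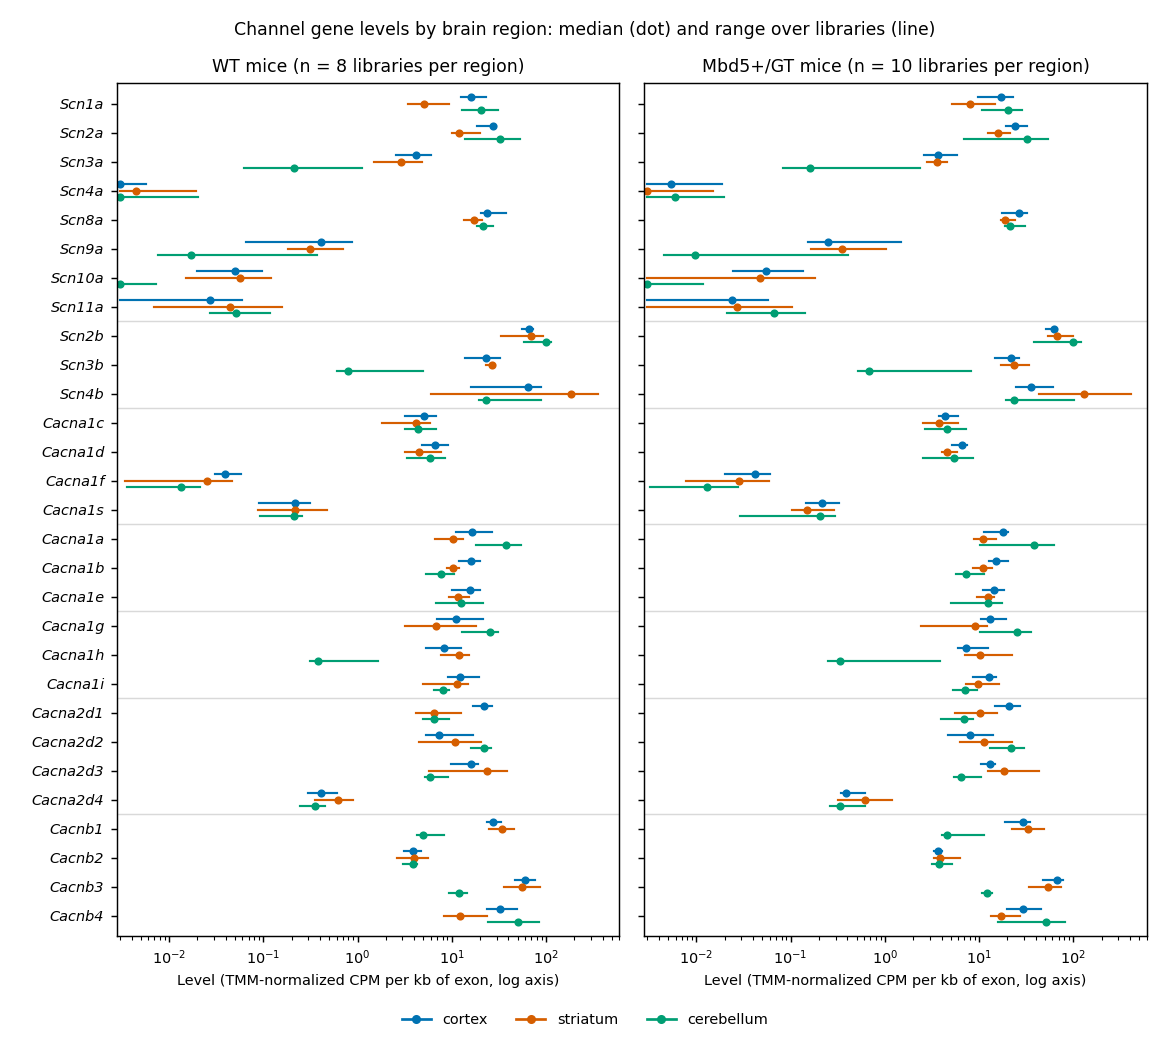
Level of each member as TMM-normalized CPM per kb of exon (log x axis), with the dot for the median and the line for the range over 8 WT libraries (left) or 10 Mbd5+/GT libraries (right) per region, and values under 0.003 drawn at 0.003. In WT mice Scn4b runs from 6.10 to 359 in striatum, and Scn3a, Scn3b, Cacna1h, Cacnb1 and Cacnb3 sit lower in cerebellum than in the other regions.

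Region contrasts asked how the channel genes differ between the 3 brain regions of the same mice. They were tested within the 24 WT libraries and again within the 30 Mbd5+/GT libraries, and a member was counted where it differed at least 2-fold with an adjusted p under 0.05 (edgeR quasi-likelihood test, Benjamini-Hochberg adjustment over all genes tested). Of the 29 members, 28 passed the filter on low counts. In WT mice 11 members were higher in cortex than in cerebellum (15.6% of all genes tested) and 2 were lower (8.59% of all genes). Between striatum and cerebellum 9 members were higher in striatum (17.4% of all genes) and 5 were lower (12.0% of all genes). Cortex and striatum were more alike, with 3 members higher in cortex (5.71% of all genes) and 1 higher in striatum (4.47% of all genes). Of these, Scn10a and Cacna1f (cortex) and Scn10a (striatum) were too low in cerebellum to be tested there and passed the filter through the other regions. Among genes that passed it in both regions compared, a restriction chosen after the counts were seen, 9 members were higher in cortex than in cerebellum (12.4% of all such genes) and 2 lower (7.98%), with 8 higher (14.2%) and 5 lower (11.2%) in striatum. The median size of a member's log2 difference was 1.02 between cortex and cerebellum, 1.13 between striatum and cerebellum and 0.49 between cortex and striatum, against 0.45, 0.59 and 0.39 over all genes tested.

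The Mbd5+/GT mice, which share no library with the WT mice, gave much the same list. Cortex exceeded cerebellum in 10 members (15.6% of all genes) and fell below it in 3 (8.61%). Striatum exceeded cerebellum in 10 (16.2%) and fell below it in 4 (10.6%). Cortex exceeded striatum in 2 (3.22%) and fell below it in 1 (3.06%). Among genes that passed the filter in both regions compared, Mbd5+/GT cortex exceeded cerebellum in 8 members (12.2% of all such genes) and fell below in 2 (7.81%). Striatum then exceeded cerebellum in 8 (12.9%) and fell below in 4 (9.56%). Calls in the same direction in both genotypes numbered 12 for cortex against cerebellum (of 13 in WT and 13 in Mbd5+/GT mice), 13 for striatum against cerebellum (of 14 and 14) and 3 for cortex against striatum (of 4 and 3). These shared calls include Scn10a and Cacna1f (cortex) and Scn10a (striatum), which were too low in cerebellum to be tested there. The members called in only 1 genotype were Cacna2d3 and Scn11a, Cacna1f and Scn2a, and Cacnb4, respectively. How often a call over all genes was shared between genotypes was not taken, so this overlap is not read as a trait of the members. Without the 11 libraries named above, the WT counts were 12 higher and 4 lower for cortex against cerebellum, 10 and 6 for striatum against cerebellum, and 4 and 1 for cortex against striatum. The Mbd5+/GT counts were then 11 and 3, 10 and 7, and 1 and 1. Shares over all genes were not taken for these fits, so whether the changed counts are particular to the members cannot be told. In WT mice the median size of the log2 difference was then 0.495, 0.610 and 0.376 over all genes. It was 1.195, 1.193 and 0.483 for the members, in the same order of contrasts.

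**Figure D2:**
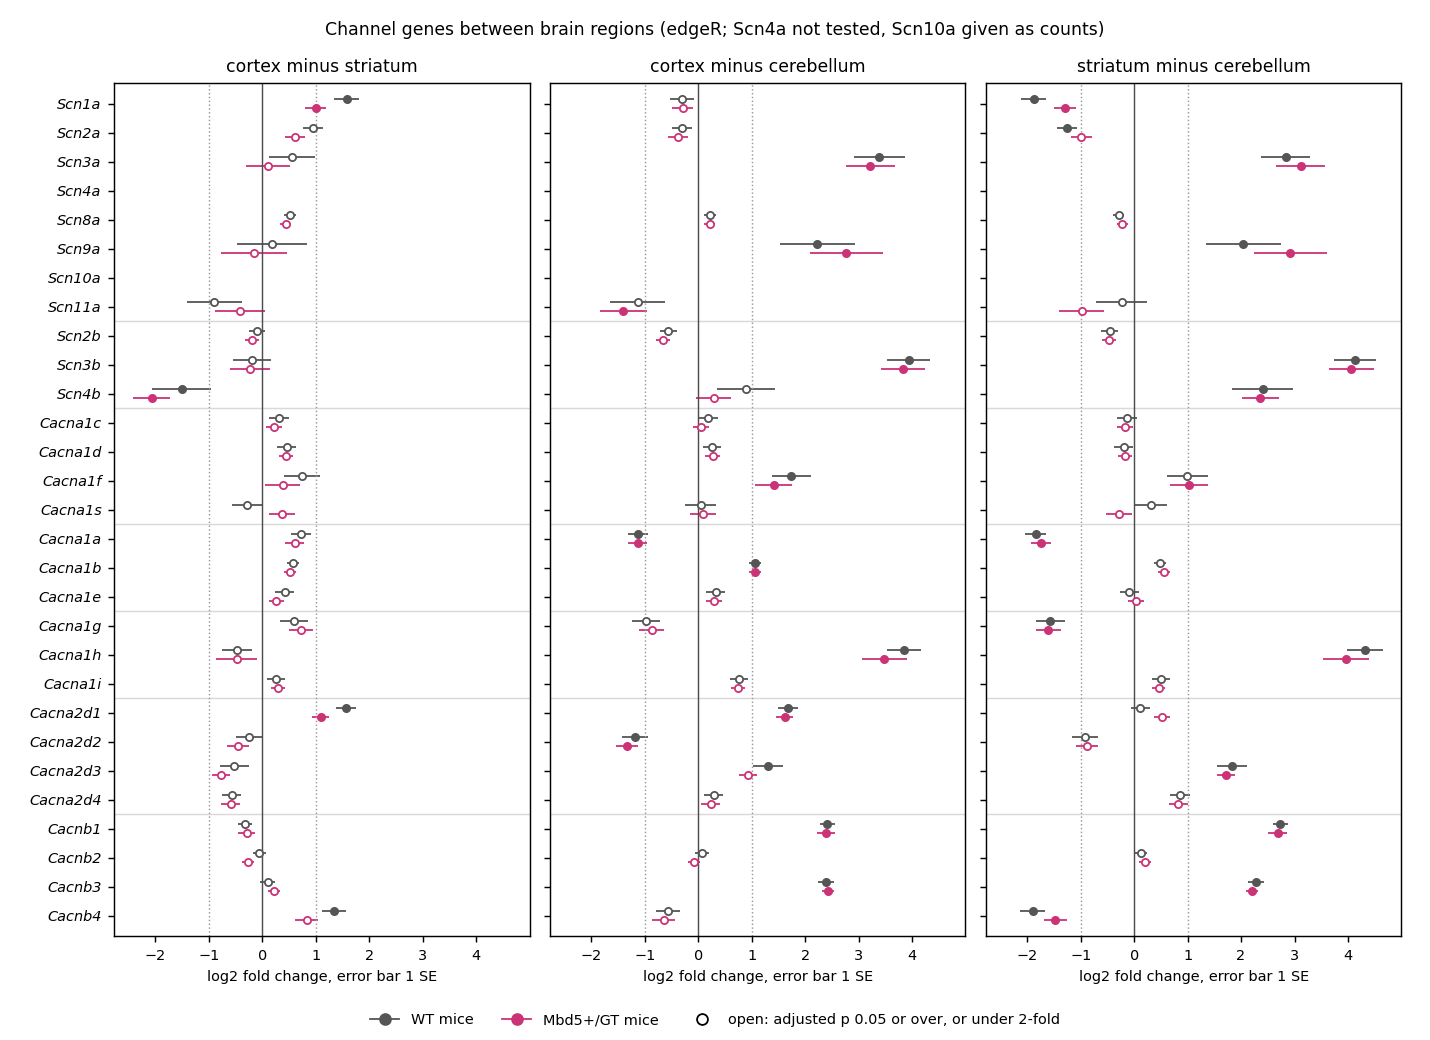
Log2 difference between regions (x axis, 1 panel per contrast) of each member (1 line each) in WT and in Mbd5+/GT mice, from edgeR, with bars of 1 SE, filled points past the threshold and dotted lines at 2-fold. Scn4a was not tested and Scn10a is given as counts, so neither is drawn, and Scn3b, Cacna1h and Scn3a lie farthest to the right in both contrasts with cerebellum (Scn3b at 3.94 in WT and 3.83 in Mbd5+/GT mice for cortex).

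Of the sodium channel alpha genes, Scn1a, Scn2a and Scn8a carry the main neuronal sodium currents of the adult brain. Scn1a, the channel of fast-spiking interneurons and of axon initial segments, measured 12.7, 16.2 and 23.3 CPM per kb in WT cortex (lowest, median and highest library), 3.44, 5.05 and 9.45 in striatum, with 12.9, 20.5 and 31.4 in cerebellum. Every WT striatum library lay below every WT cortex and cerebellum library. The difference in log2 was 1.58 ± 0.23 (SE, 8 libraries per region) for cortex over striatum (edgeR adjusted p = 2.21e-05) and -1.88 ± 0.23 for striatum against cerebellum (edgeR adjusted p = 1.26e-07). Leaving out the 11 libraries gave 1.34 and -1.55. In Mbd5+/GT mice the cortex excess of Scn1a was 1.00 ± 0.20, right at the 2-fold limit, and 0.99 without those libraries. Because these are bulk samples, fewer cells of a type and less RNA per cell cannot be told apart here or in any result that follows.

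Scn2a, which serves axons of excitatory neurons, measured 10.1, 12.1 and 19.9 CPM per kb in WT striatum and 14.0, 32.4 and 53.5 in WT cerebellum. The highest striatum library passed the lowest cerebellum library, so the groups overlapped, and without the 11 libraries they did not. The log2 difference of striatum against cerebellum was -1.25 ± 0.19 in WT mice (edgeR adjusted p = 2.25e-06), -1.29 without the 11 libraries, and -0.99 ± 0.19 in Mbd5+/GT mice, just short of 2-fold. Scn8a, the channel of nodes of Ranvier and initial segments, varied least of the 3, with WT medians of 23.8 CPM per kb in cortex, 17.4 in striatum and 21.4 in cerebellum, and it passed the threshold in no region contrast in either genotype.

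Scn3a, best known from the embryonic brain, was lowest in cerebellum. It measured 2.56, 4.19 and 5.99 CPM per kb in WT cortex, 1.5, 2.92 and 4.83 in striatum, with 0.0623, 0.210 and 1.12 in cerebellum. No cerebellum library reached the lowest cortex or striatum library. The log2 difference was 3.39 ± 0.47 for cortex over cerebellum (edgeR adjusted p = 1.36e-06) and 2.83 ± 0.46 for striatum over cerebellum (edgeR adjusted p = 1.01e-05). Without the 11 libraries these became 4.59 and 4.23, as the highest WT cerebellum value dropped to 0.338 CPM per kb.

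Scn9a and Scn10a, both at low levels, were also lowest in cerebellum. Relative to cerebellum, Scn9a was higher in cortex by 2.23 ± 0.70 and in striatum by 2.04 ± 0.70, and by 4.85 and 4.75 without the 11 libraries. Scn10a is given as counts, since the cerebellum held almost none: 104 counts in the 8 WT cortex libraries, 111 in striatum and 2 in cerebellum. Per counted read that is a ratio of 49.6 for cortex (95% interval 13.4 to 415) and 55.4 for striatum (15 to 463), where the intervals cover counting error only. The 10 Mbd5+/GT mice gave 147, 133 and 5 counts, with ratios of 32.4 (13.6 to 101) and 30.1 (12.6 to 94.2).

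The sodium channel beta genes split by region. Scn3b, a beta subunit of neurons, measured 13.8, 23.1 and 32.5 CPM per kb in WT cortex, 22.8, 26.8 and 29.0 in striatum, with 0.610, 0.795 and 4.96 in cerebellum. The cerebellum libraries all lay below the others, and the 4.96 came from the library of mouse M754, 1 of the 11. Log2 differences over cerebellum were 3.94 ± 0.40 in cortex (edgeR adjusted p = 8.28e-09) and 4.13 ± 0.40 in striatum (edgeR adjusted p = 3.75e-09), and 5.02 and 5.22 without those libraries. In Mbd5+/GT mice they were 3.83 and 4.06.

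Scn4b, the subunit whose cytoplasmic tail is tied to resurgent sodium current, varied widely within each region. It measured 15.9, 64.8 and 89.4 CPM per kb in WT cortex, 6.10, 186 and 359 in striatum, with 19.3, 22.9 and 89.3 in cerebellum. The lowest striatum library (mouse M754) had the lowest striatal marker sum. It and that of mouse M761 (12.4) lay below every cortex library, so the groups overlapped. Without the 11 libraries WT striatum ran from 172 to 359 and WT cortex from 15.9 to 89.4, with no overlap. The WT striatum libraries left out, of mice M754 and M761, were chosen by low striatal markers. The gap without them is thus not independent of that rule. The log2 difference of cortex against striatum was -1.51 ± 0.55 in WT mice (edgeR adjusted p = 0.0259), and -1.84 ± 0.28 without the 11 libraries. With the mouse as a replicate block it was -1.46 (edgeR adjusted p = 0.0723), and without the 2 repeated striatum libraries -1.14 (edgeR adjusted p = 0.113), so the WT call was lost under both, and the adjusted p ran from 8.48e-05 to 0.113 over 7 alternatives. In Mbd5+/GT mice the same difference was -2.07 ± 0.34 (edgeR adjusted p = 0.000104). Scn2b passed no region threshold, and its WT medians were 66.0 CPM per kb for cortex, 68.6 for striatum and 100 for cerebellum.

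The make-up of the calcium channel families is described by the share of a gene in its family's summed level per length. Among Cav2 genes, Cacna1a (P/Q-type, dominant at Purkinje cells and cerebellar synapses) made 34.9% of the WT level in cortex, 31.3% in striatum and 64.6% in cerebellum. Cacna1b (N-type) made 32.3%, 32.3% and 13.6%, and Cacna1e (R-type) 32.9%, 36.3% and 21.8%. The forebrain regions thus held near equal parts of the 3, and the cerebellum mostly Cacna1a. Without the 11 libraries the Cacna1a shares were 34.8% in cortex, 31.2% in striatum and 67.1% in cerebellum.

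**Figure D3:**
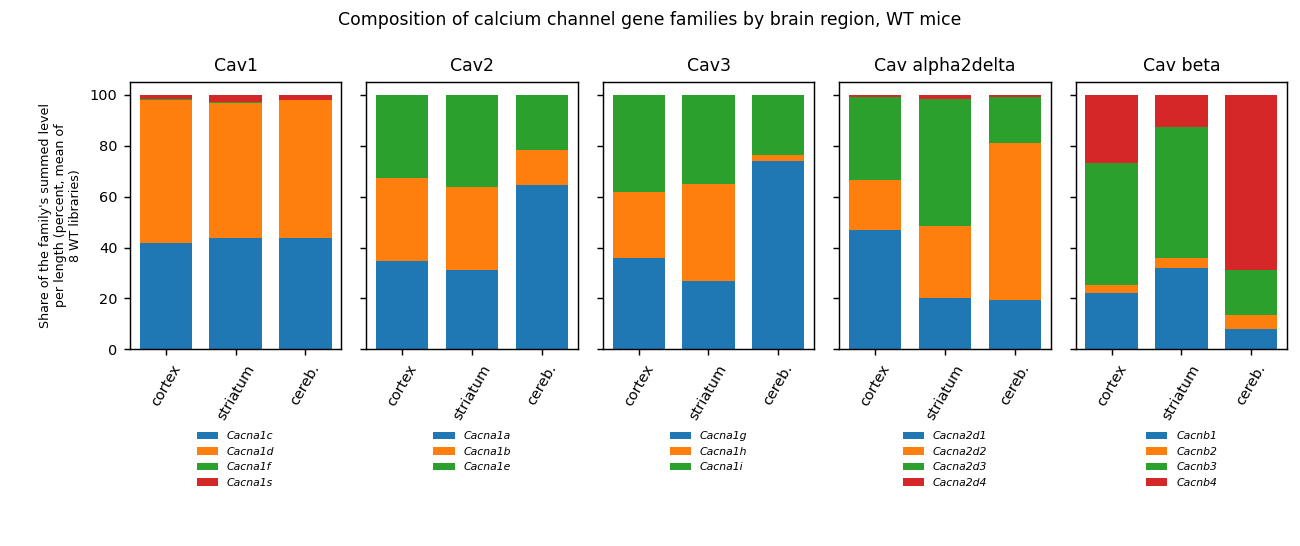
Share of each gene in its family's summed level per length, in percent, as the mean of 8 WT libraries per region, with 1 panel per calcium channel family and 1 bar per region. The cerebellum bars are mostly Cacna1a in Cav2 (64.6%), Cacna1g in Cav3 (74.1%), Cacna2d2 among alpha2delta genes (61.5%) and Cacnb4 among calcium channel beta genes (68.9%).

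By level, Cacna1a measured 11, 16.3 and 26.4 CPM per kb in WT cortex, 6.57, 10.2 and 13.1 in striatum, with 18.1, 38.1 and 54.2 in cerebellum. All cerebellum libraries exceeded all striatum libraries, while cortex and cerebellum overlapped unless the 11 libraries were left out. Log2 differences were -1.12 ± 0.19 for cortex against cerebellum (edgeR adjusted p = 1.49e-05) and -1.84 ± 0.19 for striatum against cerebellum (edgeR adjusted p = 8.43e-09), and -1.27 and -1.98 without the 11 libraries. Cacna1b went the other way, with medians of 16.0 CPM per kb in cortex, 10.2 in striatum and 7.67 in cerebellum and a log2 difference of 1.06 ± 0.12 for cortex over cerebellum (edgeR adjusted p = 2.68e-08), and 1.08 without them. Cacna1e passed no threshold. The Cav1 genes differed little: Cacna1d made 56.0%, 53.1% and 54.2% of the Cav1 level in cortex, striatum and cerebellum and Cacna1c 41.8%, 43.7% and 43.7%, and neither passed a region threshold. Cacna1f, at a median of 0.0391 CPM per kb in WT cortex and 0.0134 in cerebellum, was the sole Cav1 gene called. The 2 photoreceptor markers summed to between 0.364 and 2.52 CPM over all libraries of WT mice.

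Of the Cav3 genes, Cacna1g and Cacna1h took opposite places. Cacna1h measured 5.34, 8.21 and 12.5 CPM per kb in WT cortex, 7.74, 12.0 and 15.4 in striatum, with 0.312, 0.377 and 1.66 in cerebellum. The highest cerebellum library, again mouse M754, stayed below the lowest of the others. The log2 differences over cerebellum were 3.85 ± 0.32 in cortex (edgeR adjusted p = 3.10e-10) and 4.32 ± 0.33 in striatum (edgeR adjusted p = 5.26e-11), and 4.57 and 5.07 without the 11 libraries. Cacna1g, the T-type channel of thalamic relay and Purkinje neurons, measured 3.17, 6.74 and 18 CPM per kb in WT striatum and 12.8, 25.5 and 30.9 in cerebellum. The overlap came from libraries among the 11, and the log2 difference of striatum against cerebellum was -1.57 ± 0.27 with them (edgeR adjusted p = 2.10e-05) and -2.15 without. For cortex against cerebellum Cacna1g stood at -0.98 ± 0.27 in WT mice, just short of 2-fold, and passed it with the mouse as a replicate block (-1.09, edgeR adjusted p = 0.00193). Cacna1i passed no threshold, with WT medians of 12.2, 11.3 and 8.01 CPM per kb in cortex, striatum and cerebellum.

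Among the alpha2delta genes, Cacna2d1, a binding site of gabapentin, measured 16.9, 22.2 and 26.8 CPM per kb in WT cortex, 4.22, 6.56 and 12.4 in striatum, with 4.98, 6.50 and 9.43 in cerebellum. All cortex libraries exceeded all others. The log2 difference was 1.56 ± 0.18 for cortex over striatum (edgeR adjusted p = 4.20e-06) and 1.68 ± 0.18 for cortex over cerebellum (edgeR adjusted p = 2.45e-08), and 1.55 and 1.64 without the 11 libraries. Cacna2d2, whose loss causes the ducky mouse's ataxia, was highest in cerebellum, at a median of 22.3 CPM per kb against 7.41 in cortex and 10.9 in striatum (log2 -1.18 ± 0.24 for cortex against cerebellum, edgeR adjusted p = 0.000206). For striatum against cerebellum Cacna2d2 differed by -0.93 ± 0.24, by -1.10 without the 11 libraries, and by -1.04 with the mouse as a replicate block (edgeR adjusted p = 0.000115), past 2-fold in both. Cacna2d3 was highest in striatum, at 5.74, 23.9 and 38.7 CPM per kb against 5.26, 5.82 and 9.20 in cerebellum. The low striatum libraries were those of mice M761 (5.74) and M754 (5.92), both among the 11, and the other 6 ran from 21.3 to 38.7. The log2 difference was 1.83 ± 0.28 with the 11 libraries and 2.25 ± 0.15 without. Striatum libraries were left out by low striatal markers, so the larger value is not independent of that rule.

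Among calcium channel beta genes, Cacnb3 had the largest share in cortex (47.7% of the family's level per length) and striatum (51.4%), and Cacnb4 in cerebellum (68.9%). With the 11 libraries left out, these shares were 48.5%, 48.8% and 70.0%. Cacnb4, the gene mutated in the lethargic mouse, measured 23.5, 32.9 and 49.5 CPM per kb in WT cortex, 8.28, 12.4 and 23.6 in striatum, with 24.2, 50.5 and 85.4 in cerebellum. Striatum lay below cerebellum in every library and touched cortex only through its single highest library (23.6, mouse M757). The log2 difference was -1.90 ± 0.23 for striatum against cerebellum (edgeR adjusted p = 1.30e-07) and 1.34 ± 0.23 for cortex over striatum in WT mice (edgeR adjusted p = 1.00e-04), where the Mbd5+/GT mice gave 0.83 ± 0.21, under the 2-fold limit. The WT values were -1.82 and 1.11 without the 11 libraries.

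Cacnb1 and Cacnb3 were the reverse. Cacnb1 measured 23.6, 27.6 and 33.2 CPM per kb in WT cortex, 24.7, 33.9 and 46.2 in striatum, with 4.29, 5.02 and 8.19 in cerebellum. Cacnb3 measured 46.9, 60.1 and 77.0 in WT cortex, 35.8, 55.2 and 85.5 in WT striatum, with 9.34, 11.9 and 14.6 in cerebellum. For both genes no cerebellum library reached any library of the other regions. The log2 differences over cerebellum were 2.42 ± 0.14 and 2.74 ± 0.14 for Cacnb1 in cortex and striatum and 2.39 ± 0.15 and 2.29 ± 0.15 for Cacnb3, and they included the smallest adjusted p of a member in WT mice (edgeR, 4.17e-14 for Cacnb1 between striatum and cerebellum). They were 2.58 and 2.96 for Cacnb1 and 2.31 and 2.14 for Cacnb3 without the 11 libraries. Cacnb2, which is prominent in heart, was even, at WT medians of 3.88, 3.99 and 3.85 CPM per kb.

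Genotype comparisons asked whether the channel genes responded to the Mbd5 gene trap in each region. None of the tested members passed an adjusted p of 0.05 in any region by edgeR, where over all genes 2 passed in cortex, 1 in striatum and 1 in cerebellum, each time with Mbd5 among them. The lowest adjusted p of a member was 0.503 for cortex, 0.629 for striatum and 1.00 for cerebellum. At an unadjusted p under 0.05, 0 of 27 tested members were higher in Mbd5+/GT cortex (3.96% of all genes) and 2 were lower (4.51% of all genes), 3 of 28 were higher in striatum (4.24%) and 0 were lower (3.2%), and 0 of 26 in cerebellum were higher (0.964%) or lower (1.78%). With the surrogate variables in the model, the median SE of a member in log2 was 0.0755 for cortex, 0.0986 for striatum and 0.0622 for cerebellum. These SE do not cover the choice of model or libraries. Over 10 alternatives, Scn1a in striatum ran from 0.09 to 0.54. The fitted difference lay within 10% of no change for 22, 21 and 24 of the members tested. Over the 22 members with higher levels, it ran from -28.0% to 8.37% (cortex), from -10.6% to 18.7% (striatum) and from -11.8% to 6.69% (cerebellum). The median log2 difference of the members was -0.04, -0.00 and -0.01, against -0.00, -0.01 and -0.00 over all genes.

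**Figure D4:**
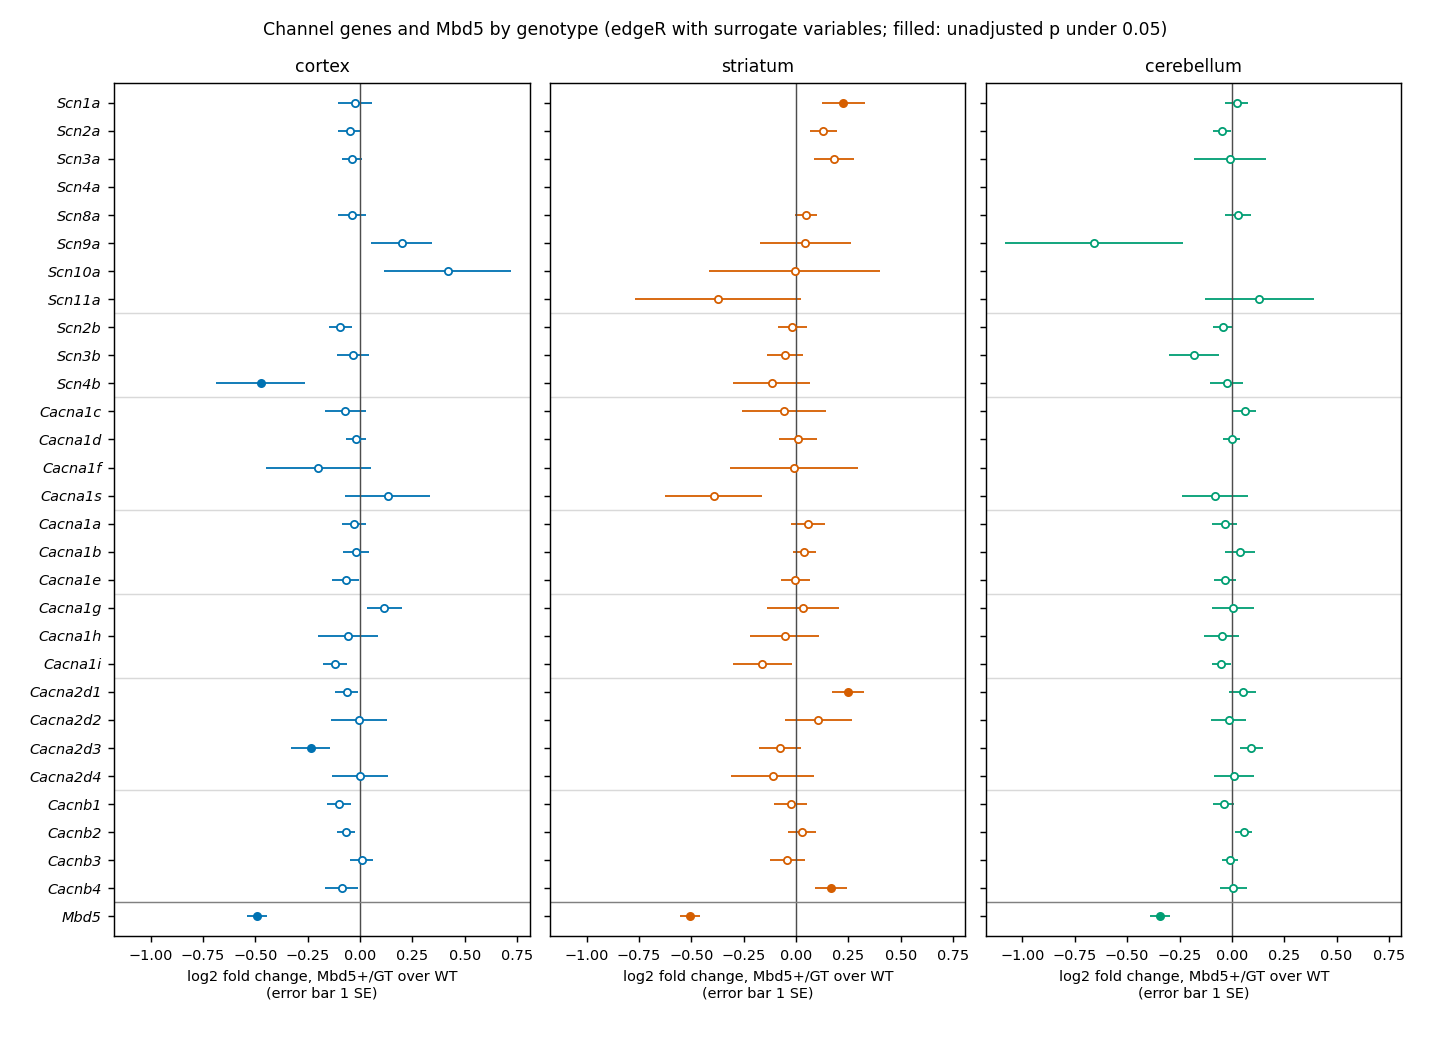
Log2 difference between Mbd5+/GT and WT mice of each tested member, with Mbd5 at the foot, by region, from edgeR with surrogate variables, with bars of 1 SE and filled points at an unadjusted p under 0.05. The 5 filled members are Scn4b and Cacna2d3 in cortex and Scn1a, Cacna2d1 and Cacnb4 in striatum, and none passed an adjusted p of 0.05.

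In cortex, Scn4b measured 15.9, 64.8 and 89.4 CPM per kb in WT mice and 24.7, 35.4 and 61.4 in Mbd5+/GT mice. None of the 10 Mbd5+/GT libraries exceeded the WT median, yet the ranges overlapped, since the lowest library was a WT one. The fitted log2 difference was -0.47 ± 0.21 (edgeR unadjusted p = 0.0443, adjusted p = 0.567). It was -0.33 without the 11 libraries (edgeR unadjusted p = 0.171, with a range of 0.0264 to 0.171 over 9 alternatives). Cacna2d3 measured 9.79, 16.1 and 18.9 in WT and 10.4, 13.1 and 14.8 in Mbd5+/GT cortex, again with no Mbd5+/GT library above the WT median. Its log2 difference was -0.24 ± 0.09 (edgeR unadjusted p = 0.0232), and -0.20 without the 11 libraries. Over 9 alternatives it ran from -0.288 to -0.136. The unadjusted p stayed under 0.05 in 7 of them and was highest without litter 2 (edgeR unadjusted p = 0.186). Both genes had higher WT medians in striatum than in cortex. The 6 striatal projection neuron markers in these cortex libraries summed to 108, 838 and 1261 CPM in WT and to 179, 393 and 855 CPM in Mbd5+/GT mice, and their part in the difference was not tested.

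Cacna1i, a T-type channel, had the next smallest p in cortex. It measured 9.04, 12.2 and 19.7 CPM per kb in WT and 8.60, 12.8 and 15 in Mbd5+/GT cortex, and the ranges overlapped almost wholly. The log2 difference was -0.12 ± 0.06 (edgeR unadjusted p = 0.0543, adjusted p = 0.602), with 6 of 10 Mbd5+/GT libraries above the WT median, and it turned to 0.02 with litter and sex as covariates. Within litters 1, 2 and 3 the mean log2 level of Mbd5+/GT less WT cortex was -0.82, -0.91 and -0.32 for Scn4b, -0.29, -0.56 and -0.17 for Cacna2d3, and -0.11, 0.40 and -0.08 for Cacna1i. These within-litter values were not adjusted for surrogate variables, and the value of litter 2 rests on 1 WT mouse.

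In striatum, Cacna2d1 measured 4.22, 6.56 and 12.4 CPM per kb in WT and 5.51, 10.2 and 15.7 in Mbd5+/GT mice, with 9 of 10 Mbd5+/GT libraries above the WT median. Scn1a measured 3.44, 5.05 and 9.45 in WT and 5.22, 7.97 and 14.9 in Mbd5+/GT mice, with 10 of 10 above the WT median and 3 above the highest WT library. Cacnb4 measured 8.28, 12.4 and 23.6 in WT and 13.5, 17.3 and 26.9 in Mbd5+/GT mice, with 10 of 10 above the WT median. In all 3 genes the groups overlapped, with the Mbd5+/GT libraries shifted upward, as the plot of single libraries shows.

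**Figure D5:**
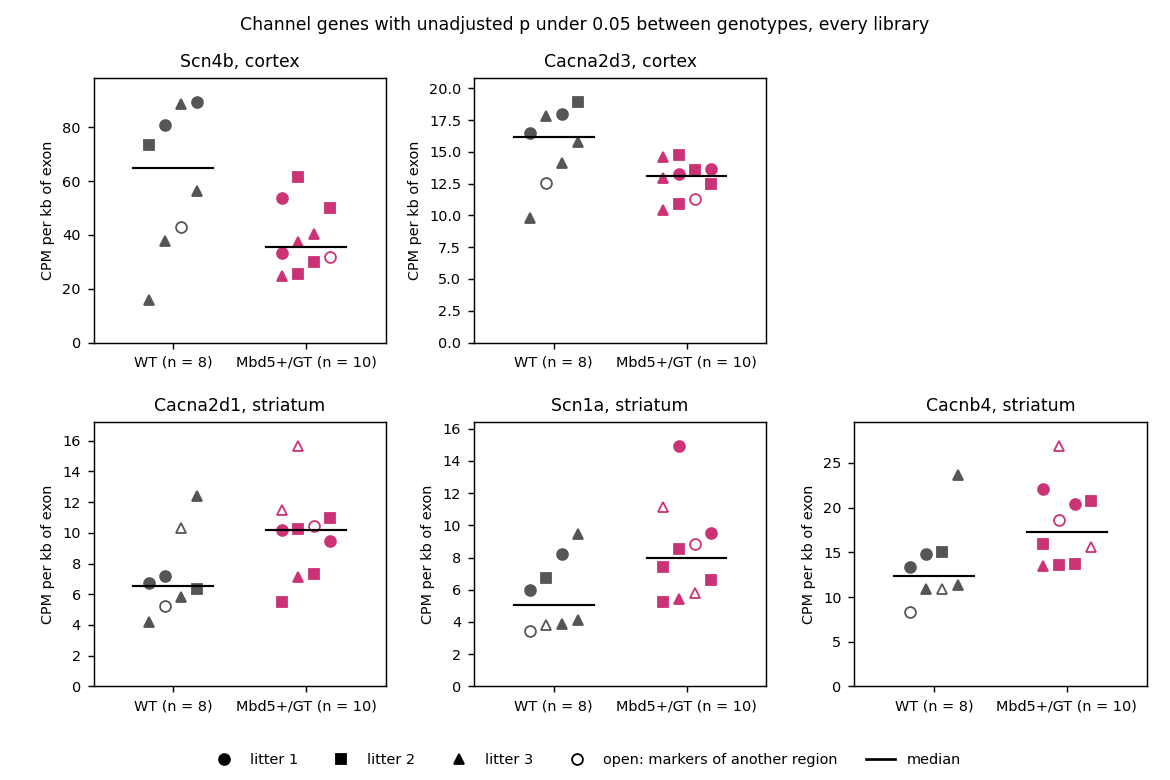
Level of the 5 members at an unadjusted p under 0.05, as TMM-normalized CPM per kb of exon, 1 point per library, WT (8) beside Mbd5+/GT (10), in cortex (Scn4b, Cacna2d3) and striatum (Scn1a, Cacna2d1, Cacnb4), with a line at the median, marker shapes for the 3 litters and open points for libraries among the 11 set out above. The groups overlap in each panel, and all 10 Mbd5+/GT striatum libraries lie above the WT median for Scn1a and Cacnb4.

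The fitted log2 differences in striatum were 0.25 ± 0.08 for Cacna2d1 (edgeR unadjusted p = 0.00471, adjusted p = 0.629), 0.23 ± 0.10 for Scn1a (edgeR unadjusted p = 0.0413, adjusted p = 0.651) and 0.17 ± 0.08 for Cacnb4 (edgeR unadjusted p = 0.0433, adjusted p = 0.654). The model held 4 surrogate variables, and with none the differences were 0.42, 0.54 and 0.41 (edgeR unadjusted p = 0.0521, 0.0308 and 0.0297). Without the 11 libraries they were 0.21, 0.28 and 0.15, of which only Cacna2d1 kept an unadjusted p under 0.05 by edgeR (0.0490). Without litter 2 they were 0.01, 0.11 and 0.02, without the repeated libraries 0.18, 0.09 and 0.10, and with a filter of at least 10 counts in every library 0.16, 0.10 and 0.07, and none kept it under any of these. The repeated libraries, marked rep in their labels, were those of WT mice M751 and M752 of litter 3, and no Mbd5+/GT library was a repeat. Within litters 1, 2 and 3, Mbd5+/GT less WT mean log2 levels were 0.66, 0.37 and 0.54 for Cacna2d1, 0.97, 0.03 and 0.52 for Scn1a, and 0.79, 0.07 and 0.42 for Cacnb4. These values were not adjusted for surrogate variables, and litter 2 held 1 WT mouse. In litters 1 and 3 they were larger than in the fit without litter 2, which held surrogate variables. What made them differ was not tested. All 3 genes had higher WT medians in cortex than in striatum. The 6 cortical glutamatergic markers in these striatum libraries summed to 298, 708 and 1107 CPM in WT and to 41.9, 795 and 1370 CPM in Mbd5+/GT mice, and their part in the difference was not tested.

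Mbd5 lies on chromosome 2 (GRCm38, 48949508 to 49325405), as do 7 members. Cacnb4 is 3.10 Mb away, Scn3a 16.1, Scn2a 16.3, Scn1a 16.9 and Scn9a 17.2 Mb, with Cacna1b and Cacnb2 at 24.2 and 34.0 Mb on the other side. In striatum the fitted log2 differences of these members ran from 0.03 (Cacnb2) to 0.23 (Scn1a), in cortex from -0.09 (Cacnb4) to 0.20 (Scn9a), and in cerebellum from -0.66 (Scn9a, SE 0.43) to 0.06 (Cacnb2). Any part of the position beside Mbd5 in these values was not tested.

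In cerebellum no member reached an unadjusted p of 0.05. The 3 nearest were Cacna2d3 (log2 0.09), Scn9a (-0.66) and Scn3b (-0.18), and the lowest unadjusted p was 0.112 by edgeR.

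An interaction fit over all 54 libraries, with no surrogate variables, asked whether a region changed the genotype effect. At an unadjusted p under 0.05, 1 of 28 members differed between cortex and striatum (4.22% of all genes), 0 between cortex and cerebellum (1.11% of all genes) and 1 between striatum and cerebellum (2.68% of all genes). These were Cacna2d1, with a difference of log2 effects of -0.50 ± 0.24 for cortex less striatum (edgeR unadjusted p = 0.0423, adjusted p = 0.989), and Scn1a, with 0.63 ± 0.31 for striatum less cerebellum (edgeR unadjusted p = 0.0461, adjusted p = 0.995). With the mouse as a replicate block, 2 members differed between cortex and striatum, Scn1a joining at -0.61 (edgeR unadjusted p = 0.0450). Without the 11 libraries there were 0 in each comparison. Shares over all genes were not taken for these alternative fits.

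A further list held 36 genes, mostly of channel-associated proteins such as the Cacng subunits, the Fgf11 to Fgf14 group and ankyrins. It also held Scn7a, outside the members' rule, and Nalcn, Unc79 and Unc80 of the separate NALCN channel complex. None of the 36 passed an adjusted p of 0.05 between genotypes by edgeR. At an unadjusted p under 0.05, cortex had 0 of 35 tested genes higher (3.96% of all genes) and 2 lower (Cacng3 and Cacng4, 4.51% of all genes). Striatum had 4 of 36 higher (Unc80, Scn7a, Nalcn and Fgf12, 4.24%) and 1 lower (Cacng5, 3.2%), and cerebellum 0 of 34 higher (0.964%) and 1 lower (Cacng4, 1.78%). Between regions of WT mice, at the same threshold as the members, 9 of 36 were higher in cortex than in cerebellum (15.6% of all genes) and 3 lower (8.59%). In striatum against cerebellum 11 were higher (17.4%) and 4 lower (12.0%), and in cortex against striatum 3 were higher (5.71%) and 4 lower (4.47%).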

How the data were processed

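Per the labels and the study's methods, reads of 54 libraries (18 mice, 3 regions) were checked with FastQC 0.10.1 and aligned with STAR 2.4.2 to Ensembl GRCm38, and the authors deposited whole-number counts per gene from its GeneCounts option. The strand setting was not given in the sources used here, so counts of members that overlap a gene on the other strand (among them Cacna1c, Cacna1d, Cacna1h, Cacna2d3 and Cacna2d4) are uncertain. The 92 ERCC spike-ins (0.0207% to 0.728% of counts) were left out. Genes above 4 counts in 8 or more libraries were fitted with edgeR 4.0.16 (quasi-likelihood, TMM, R 4.3.3) and Benjamini-Hochberg adjustment over all genes. Genotype fits held svaseq (sva 3.50.0) surrogate variables, 4 in cortex, 4 in striatum and 2 in cerebellum. Region fits held region alone. The SE is the log2 difference divided by the square root of F. Levels are TMM-normalized CPM per kb of GENCODE M21 exon union, used in place of the TPM first planned. Within-litter values are means of log2 CPM with 0.01 added. Named genes were the 5 largest called differences per direction and WT region contrast, and for genotype every member at an unadjusted p under 0.05 or the 3 with the smallest p. Other members were named to cover each family. The rule on symbols gave 31 genes, of which 2 are not reported here, and counts, medians and shares of members cover the other 29. Members and lists were chosen with earlier results of these data known. Mouse numbers pair the regions by animal: deviations of the same mouse correlated at a median of 0.0920 (cortex and striatum), 0.163 (cortex and cerebellum) and 0.0613 (striatum and cerebellum), against -0.00446, -0.00983 and -0.00549 for different mice. Alternatives included DESeq2 1.42.0, other filters and covariates, the mouse as replicate block, and libraries or litter 2 left out. The fits were tested on simulated data.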

Additional observations from a re-analysis of the deposited data

Results flagged for a closer look

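In 17 of 94 groups of libraries (1 member in 1 region and genotype), a single library stood farther from the others than its group's range allows at the 95% level of Dixon's test, and chance alone gives this in about 1 group in 20. Of these, 13 were in libraries among the 11 set out above. The Mbd5+/GT cerebellum library of mouse M755 held 7 of them: Scn3a at 2.38, Scn9a at 0.405, Scn3b at 8.14, Scn4b at 102.0, Cacna1h at 3.89, Cacna2d3 at 10.4 and Cacnb1 at 11.1 CPM per kb, the highest value of its group each time. The WT cerebellum library of mouse M754 held 4, with Scn4b at 89.3, Cacna1h at 1.66, Cacna2d3 at 9.20 and Cacnb1 at 8.19 CPM per kb. In these 2 libraries the granule cell markers summed to 161 and 1595 CPM, against group medians of 4768 and 4648. In striatum, Scn10a reached 0.181 CPM per kb in the Mbd5+/GT library of mouse M763. In cortex, Scn9a reached 1.47 in the Mbd5+/GT library of mouse M758. The other 4 were in libraries outside the 11: in Mbd5+/GT mice Cacna1h at 12.5 (cortex, mouse M753) and 22.5 (striatum, mouse M764) and Cacna1i at 16.2 (striatum, mouse M764), and in WT mice Cacnb4 at 23.6 CPM per kb (striatum, mouse M757). All 17 were high values.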

How the results depend on the processing

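Under the alternatives run, 76 counts of called members stayed within 1.5 times the reported count and 12 moved. For genotype in cortex (2 members), no filter gave 6. For genotype in striatum (3 members), 1 surrogate variable fewer gave 5, litter and sex as covariates 5, no filter 1, and a filter of at least 10 counts in every library 0, as did leaving out litter 2 (0) or the repeated libraries (0), while leaving out the 11 libraries with other-region markers gave 1. For the genotype effect in cortex against striatum (1 member), the replicate block gave 2 and leaving out those libraries 0. For striatum against cerebellum (1 member), leaving out litter 2 gave 0, as did leaving out those libraries (0). Cacna1i in cortex turned from -0.118 to 0.0184 with litter and sex as covariates (edgeR unadjusted p = 0.898). Values of single named members, by region and by genotype, were followed too, together with those of Mbd5 by genotype. Mbd5 was judged at an adjusted p of 0.05. Of all these values, 340 kept direction and side of the threshold, 36 fell short of it and 2 passed it. The causes were not tested. Shares over all genes were not taken for these alternatives, so the moved counts cannot be set against the rate over all genes. Left-out libraries leave fewer samples, and stricter filters leave fewer members, though the 3 striatum members were still tested under the filter of at least 10 counts. The replicate block lost the WT call of Scn4b between cortex and striatum and added Cacna1g and Scn11a (WT, cortex against cerebellum), Cacna2d2 (WT, striatum against cerebellum) and Scn11a (Mbd5+/GT, striatum against cerebellum). Members below 1 CPM per kb were measured with the least precision.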
